A study of Homo sapiens with 8 samples.

Results

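The genes described here encode the enzymes that write and erase histone methylation, together with the histone deacetylases. They were taken by symbol from the deposited count table: the lysine demethylases (KDM), the KMT2, SETD, SETDB, SUV39H, SUV420H, EHMT and NSD family lysine methyltransferases with DOT1L, the PRC2 core (EZH1, EZH2, EED, SUZ12), the arginine methyltransferases (PRMT and CARM1), and the deacetylases HDAC1 to HDAC11 and SIRT1 to SIRT7. The rule matched 76 of 26475 genes in the table, and 74 of them passed the filter on low counts. The other 2 were PRMT8, with 0 to 10 counts in a library, and KDM5D. The table uses older symbols for some members: WHSC1 is now NSD2, WHSC1L1 is NSD3, SETD8 is KMT5A, and SUV420H1 and SUV420H2 are KMT5B and KMT5C.

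RNA came from BT474, a line long established from a human breast carcinoma and known for its amplified ERBB2. All 8 samples are of BT474: 4 are labelled NPY1R high (NPY1R_HI) and 4 NPY1R low (NPY1R_LO), for the gene of the neuropeptide Y receptor Y1, and the labels name no drug, time point or other genotype. How the high and low cells were obtained is not in the labels, nor whether the replicates were separate cultures. A p-value therefore sets the group difference only against the spread between these samples, and it may not extend to new cultures. The comparison asks which of these enzymes are expressed at another level where NPY1R is high.

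Histone lysine methyltransferases add methyl groups at defined positions, where methylation at H3K4 and H3K36 is found at active genes and methylation at H3K9, H3K27 and H4K20 is tied to repressed or compacted chromatin. Demethylases of the flavin-dependent KDM1 type and of the JmjC type remove these marks. Class I, IIa, IIb and IV deacetylases use zinc and the sirtuins use NAD to remove acetyl groups, and several act on proteins other than histones. The demethylase KDM5A and deacetylase inhibitors are known from work on cancer cells that tolerate kinase inhibitors, the topic named in the series title.

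Total expected counts per library ranged from 18025648 to 30609791. NPY1R itself had a mean of 856 ± 170 CPM (SD, n = 4) across the NPY1R high libraries against 95.5 ± 5.66 CPM (SD, n = 4) across the NPY1R low libraries, with no overlap of the groups, in the direction of the labels. The 8 luminal epithelial markers, among them ERBB2, KRT8 and EPCAM, summed to between 6653 and 7737 CPM in the NPY1R high libraries and between 6376 and 8683 CPM in the NPY1R low libraries. Of 6 fibroblast markers 5 were under 1 CPM in every library, as were 3 of 4 basal, 3 of 4 immune and 2 of 3 endothelial markers. The sums ranged from 10.9 to 17.5 CPM in NPY1R high and 10.4 to 17.5 CPM in NPY1R low for the fibroblast list, from 4.98 to 8.98 and 4.76 to 7.78 CPM for the basal list, from 1.05 to 1.31 and 1.19 to 2.21 CPM for the immune list, and from 9.22 to 15.5 and 13.5 to 18.2 CPM for the endothelial list. COL1A2, DCN, PDGFRB, KRT14 and CD3E had no counts in any library, and COL1A1, TP63, VWF and CD68 gave most of those sums. In bulk RNA, a change in the share of cells that express a gene and a change in RNA per cell cannot be told apart.

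The deacetylase HDAC9 rose more than 4-fold in NPY1R high, and for most of the other enzymes no difference was called. In edgeR's quasi-likelihood test of NPY1R high against NPY1R low, with p-values adjusted over all tested genes by the Benjamini-Hochberg method and a threshold of 0.05, 4 of the 74 tested members were called (5.41%). The members called higher were HDAC9 and PRMT2, and those called lower were SETD7 and WHSC1. Among all 14008 tested genes 13.6% were called, 5.78% higher and 7.81% lower. Of all calls 42.5% were higher, and 56.3% were with upper-quartile scaling, while the members were split 2 and 2 under both. The median log2 fold change was -0.04 over the members and -0.03 over all tested genes, and the median absolute log2 fold change was 0.11 and 0.14. The sign of both medians turned with upper-quartile scaling, to 0.02 over the members and 0.03 over all tested genes. Both also turned without NPY1R high replicate 3, to 0.05 and 0.01, and in some other alternatives. The groups did not overlap for 8 members (10.8%), against 20.2% of all tested genes. An unadjusted p under 0.05 was found for 16 members, and for 26.2% of all tested genes.

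**Figure D1:**
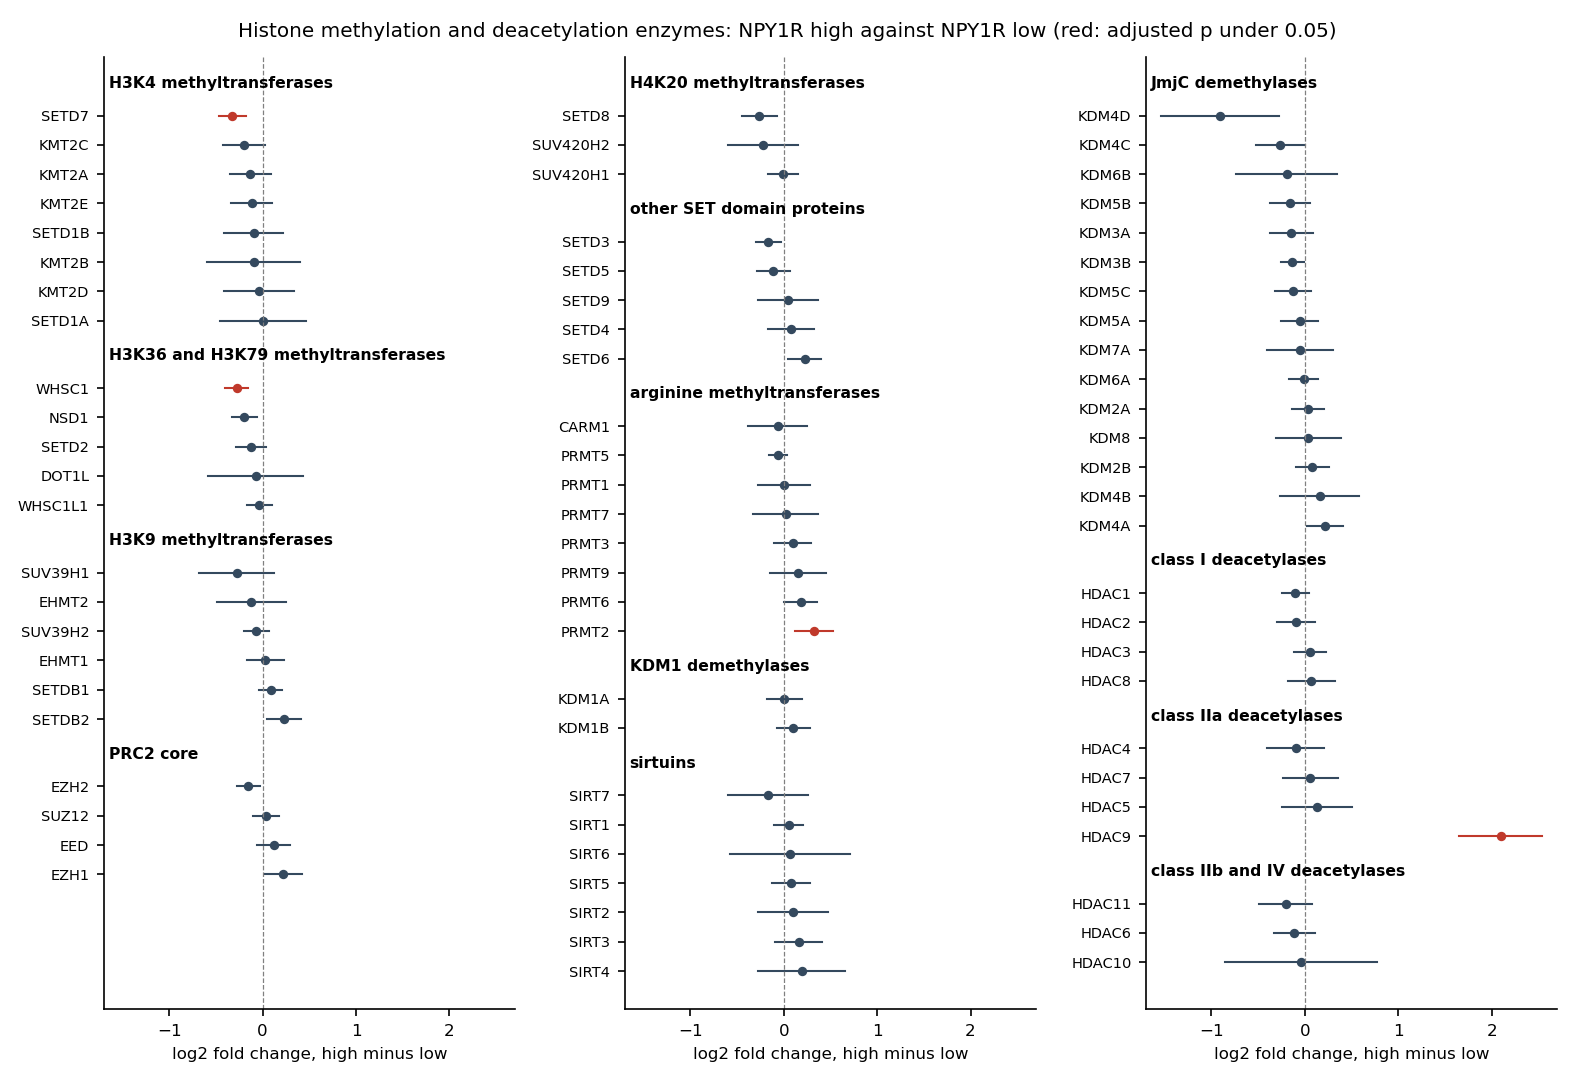
Log2 fold change of each of the 74 tested enzymes (NPY1R high minus NPY1R low, points) with its 95% interval (lines), grouped by enzyme class; red marks members called at an adjusted p threshold of 0.05. HDAC9 stands at 2.10, and the other members called, PRMT2, WHSC1 and SETD7, lie between -0.32 and 0.32.

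The largest difference belonged to HDAC9, a class IIa deacetylase, a class that binds transcription factors such as MEF2 and has weak catalytic activity of its own. HDAC9 lies at chr7:18086825-19002416 (GRCh38.p14). It had 81, 87, 100 and 44 expected counts in NPY1R high replicates 1 to 4 and 20, 18, 19 and 17 in NPY1R low replicates 1 to 4. Scaled to library size these were 2.78, 3.23, 3.62 and 2.42 CPM in NPY1R high replicates 1 to 4, and 0.671, 0.63, 0.869 and 0.668 CPM in NPY1R low replicates 1 to 4. Every NPY1R high library stood above every NPY1R low library, and the lowest high value was more than 2-fold the highest low value. It had a mean of 3.02 ± 0.522 CPM (SD, n = 4) across the NPY1R high libraries against 0.71 ± 0.108 CPM (SD, n = 4) across the NPY1R low libraries, and the log2 fold change was 2.10 (SE 0.20), with a 95% interval on the log2 scale of 1.66 to 2.54, a 4.28-fold difference (edgeR quasi-likelihood adjusted p 9.99e-05). The mean log2 CPM of HDAC9 (prior count 2) differed by 2.08 in replicates 1 and 2 and by 1.86 in replicates 3 and 4. For the other called members these differences were -0.21 and -0.45 (SETD7), -0.22 and -0.34 (WHSC1) and 0.21 and 0.45 (PRMT2).

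HDAC9 was scarce beside the other class IIa deacetylases even where it was higher. Its share of the counts of HDAC4, HDAC5, HDAC7 and HDAC9 together was 5.20%, 7.32%, 8.94% and 4.86% in NPY1R high replicates 1 to 4, and 1.46%, 1.38%, 1.83% and 1.82% in NPY1R low replicates 1 to 4. Per kilobase of transcript, HDAC9 had a mean level of 0.311 CPM per kb in NPY1R high, where of the 74 tested members only KDM4D was lower at 0.278, and of 0.0731 CPM per kb in NPY1R low, the lowest there. Over all 8 libraries HDAC5 had 1.2, HDAC4 1.46 and HDAC7 5.88 CPM per kb. These lengths are those of the longest coding GENCODE transcript, and the counts do not say which transcript was expressed. The other class IIa members were not called: the log2 fold change was -0.10 (95% interval -0.40 to 0.21) for HDAC4, 0.13 (95% interval -0.24 to 0.50) for HDAC5 and 0.06 (95% interval -0.24 to 0.36) for HDAC7.

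The gene next to HDAC9 among those tested, TWIST1, which encodes a basic helix-loop-helix transcription factor of mesenchymal development, was also higher. TWIST1 lies 110.6 kb beyond the end of HDAC9 and does not overlap it. It is not an enzyme of this group and was singled out after its values were seen. Its levels were 25.9, 26.3, 26.6 and 25.4 CPM in NPY1R high replicates 1 to 4, and 7.25, 5.78, 4.12 and 4.08 CPM in NPY1R low replicates 1 to 4. The groups did not overlap, and the log2 fold change was 2.29 (SE 0.17) (edgeR quasi-likelihood adjusted p 2.44e-05). SNX13, the tested neighbour on the other side, had 0.04 (SE 0.06), and TWISTNB, beyond TWIST1, had 0.08 (SE 0.06). Of the 11 tested genes within 1.5 Mb of HDAC9, 5 were called (45.5%, against 13.6% of all tested genes). The other 4 were AGR3, at 0.63 (SE 0.16), BZW2 at 0.19 (SE 0.05), TSPAN13 at -0.27 (SE 0.06) and MACC1 at -0.62 (SE 0.10). The difference was therefore not shared by all genes of the region.

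**Figure D2:**
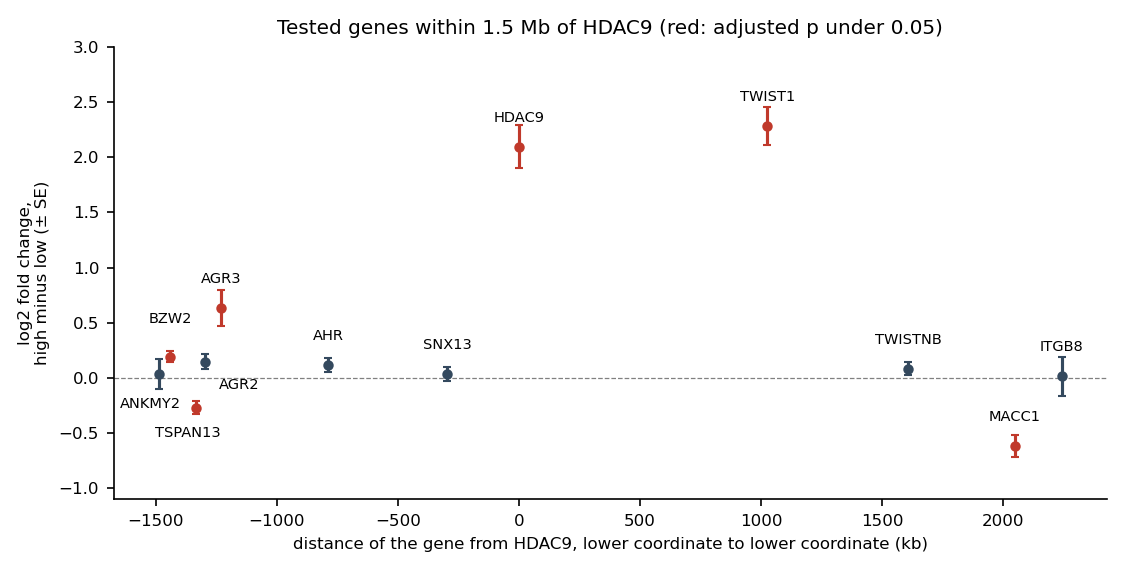
Log2 fold change (NPY1R high minus NPY1R low, ± SE) of HDAC9 and the 11 tested genes within 1.5 Mb of it, against the distance in kb between the lower ends of the genes; red marks an adjusted p under 0.05. HDAC9 at 2.10 and TWIST1 at 2.29 stand apart from the other genes, which lie between -0.62 and 0.63.

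The remaining deacetylases gave no call, so that 1 of 18 was called (5.56%, against 13.6% of all tested genes). HDAC1, HDAC2 and HDAC3 are class I enzymes that form the core of the SIN3, NuRD, CoREST and NCoR complexes. HDAC1 had 83.2, 88.1, 97.3 and 92.3 CPM in NPY1R high replicates 1 to 4, and 97.2, 94.1, 91.4 and 105 CPM in NPY1R low replicates 1 to 4, with a log2 fold change of -0.10 (95% interval -0.25 to 0.04). HDAC2 had 226, 220, 279 and 234 CPM in NPY1R high replicates 1 to 4, and 236, 238, 259 and 292 CPM in NPY1R low replicates 1 to 4, and -0.09 (95% interval -0.30 to 0.11). HDAC3, which works with NCoR, had 53.4, 53.9, 57.5 and 58.5 CPM in NPY1R high replicates 1 to 4, and 51.2, 50.6, 51.5 and 62 CPM in NPY1R low replicates 1 to 4, and 0.05 (95% interval -0.12 to 0.23). The groups overlapped for all 3 of these genes. HDAC8, the fourth class I enzyme, had 0.07 (95% interval -0.18 to 0.32).

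HDAC6, the mainly cytoplasmic tubulin deacetylase of class IIb, had 51.7, 50.6, 45.6 and 54.3 CPM in NPY1R high replicates 1 to 4, and 58, 62.7, 50.7 and 46.9 CPM in NPY1R low replicates 1 to 4, and a log2 fold change of -0.11 (95% interval -0.33 to 0.11). The other class IIb member, HDAC10, was measured poorly, at -0.04 (95% interval -0.85 to 0.77), and the class IV enzyme HDAC11 had -0.21 (95% interval -0.49 to 0.08). SIRT1, the nuclear NAD-dependent deacetylase, had 61.5, 60.8, 63.4 and 52.8 CPM in NPY1R high replicates 1 to 4, and 55, 56.6, 56.8 and 61.6 CPM in NPY1R low replicates 1 to 4, with overlapping groups and 0.05 (95% interval -0.10 to 0.21). None of the 7 sirtuins was called, with log2 fold changes from -0.17 (SIRT7) to 0.19 (SIRT4), of which the mitochondrial SIRT3, SIRT4 and SIRT5 had 0.16, 0.19 and 0.08. None of the sirtuins had an unadjusted p under 0.05. Among all tested genes 26.2% had one, and 13.6% were called.

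Among the methyltransferases, 3 of 39 tested members were called (7.69%, against 13.6% of all tested genes). SETD7, which monomethylates H3K4 and many non-histone proteins including the estrogen receptor, lies at chr4:139492974-139556219 (GRCh38.p14). Its levels were 210, 212, 178 and 188 CPM in NPY1R high replicates 1 to 4, and 244, 244, 242 and 256 CPM in NPY1R low replicates 1 to 4. All 4 NPY1R high values lay below all 4 NPY1R low values. SETD7 fell by 0.32 on the log2 scale (SE 0.06), a 1.25-fold difference (edgeR quasi-likelihood adjusted p 0.00771). The tested genes on either side of it, RAB33B and MGST2, were not called, at -0.06 (SE 0.07) and 0.17 (SE 0.10). Of 13 tested genes within 1.5 Mb of SETD7, 2 were called (15.4%, against 13.6% of all tested genes), TBC1D9 at 0.31 (SE 0.05) and RNF150 at 2.88 (SE 0.23), both higher.

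WHSC1 (NSD2), the H3K36 dimethyltransferase that is overexpressed by translocation in some myelomas, lies at chr4:1871393-1982192 (GRCh38.p14). Its levels were 170, 168, 156 and 176 CPM in NPY1R high replicates 1 to 4, and 198, 197, 203 and 215 CPM in NPY1R low replicates 1 to 4. Again the groups did not overlap, with NPY1R high below NPY1R low. WHSC1 fell by 0.28 on the log2 scale (SE 0.05), a 1.21-fold difference (edgeR quasi-likelihood adjusted p 0.00653). The small RNA gene SCARNA22 lies inside WHSC1, and the counting could split reads between them, which was not tested. SCARNA22 had 0.76 (SE 0.30) and was not called. Of 46 tested genes within 1.5 Mb of WHSC1, 4 were called (8.70%, against 13.6% of all tested genes): FGFR3 at -0.77 (SE 0.14), TACC3 at -0.72 (SE 0.17), RNF4 at -0.20 (SE 0.04) and ZFYVE28 at 1.01 (SE 0.24). Its paralogue NSD1 lay in the same direction with no overlap of the groups, at -0.19 (95% interval -0.32 to -0.06), and did not pass the threshold (edgeR quasi-likelihood adjusted p 0.0551). WHSC1L1, the third NSD enzyme, had -0.03 (95% interval -0.17 to 0.10), the H3K36 trimethylase SETD2 had -0.12 (95% interval -0.28 to 0.03), and the H3K79 enzyme DOT1L had -0.07 (95% interval -0.58 to 0.44).

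The promoters of the pair that fell are shown with that of HDAC9, as the 250 bases before the start that RefSeq (GRCh38.p14) lists for each. They were searched on both strands for the CHR element of cell cycle genes (TTTGAA), an E2F element (TTTCCCGC) and the CCAAT box (CCAAT), none of which overlap here, and matches are in capitals. The start listed for HDAC9 lies inside the annotated gene, so it is not its only start, and gene counts do not say which start was used. The windows are chr4:1871143-1871392 on the plus strand for WHSC1, chr4:139556220-139556469 on the minus strand for SETD7, and chr7:18495499-18495748 on the plus strand for HDAC9.
WHSC1: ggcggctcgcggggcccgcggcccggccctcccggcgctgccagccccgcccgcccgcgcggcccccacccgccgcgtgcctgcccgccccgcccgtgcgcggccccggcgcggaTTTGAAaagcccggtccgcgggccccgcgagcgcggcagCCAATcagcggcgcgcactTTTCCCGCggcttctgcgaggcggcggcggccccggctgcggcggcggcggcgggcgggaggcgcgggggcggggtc
SETD7: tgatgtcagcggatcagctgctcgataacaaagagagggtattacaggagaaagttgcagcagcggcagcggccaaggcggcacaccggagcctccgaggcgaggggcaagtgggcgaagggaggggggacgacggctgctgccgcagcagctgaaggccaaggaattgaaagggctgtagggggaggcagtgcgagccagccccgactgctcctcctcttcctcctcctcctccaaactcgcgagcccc
HDAC9: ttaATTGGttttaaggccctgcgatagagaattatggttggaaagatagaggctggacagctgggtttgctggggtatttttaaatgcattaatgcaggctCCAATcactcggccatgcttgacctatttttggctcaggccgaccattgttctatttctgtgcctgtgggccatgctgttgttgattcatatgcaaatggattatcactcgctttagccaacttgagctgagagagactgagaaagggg
The WHSC1 window held all 3 elements, the SETD7 window held none, and the HDAC9 window held 2 CCAAT boxes. The window of PRMT2, the other called member, is not shown and held none of them. Over 10562 tested genes with a listed promoter, windows of the same length held the CHR letters in 8.40%, the E2F letters in 2.21% and CCAAT in 35.1%. Over the 71 members with a listed promoter, they were found in 4, 4 and 26. A match of letters is a description and not evidence of a bound site.

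The H3K4 methyltransferases of the COMPASS type include MLL family enzymes, some of which are often mutated in breast cancer. KMT2C had 197, 236, 187 and 222 CPM in NPY1R high replicates 1 to 4, and 225, 213, 283 and 244 CPM in NPY1R low replicates 1 to 4, with overlapping groups and a log2 fold change of -0.20 (95% interval -0.42 to 0.03). KMT2D had 26.9, 29.8, 22.1 and 28.1 CPM in NPY1R high replicates 1 to 4, and 24.2, 27.7, 37.3 and 20.8 CPM in NPY1R low replicates 1 to 4, and -0.04 (95% interval -0.42 to 0.34). NPY1R low replicates 3 and 4 were the highest and the lowest library for KMT2D, so the spread within 1 group exceeded the difference between groups. The other 5 members of the H3K4 list beside SETD7 (KMT2A, KMT2B, KMT2E, SETD1A and SETD1B) had log2 fold changes from -0.13 to 0.00. KMT2E is listed by its name and is not a COMPASS enzyme.

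PRC2 places the H3K27 methyl marks, with EZH2 as the catalytic subunit of dividing cells and EZH1 as its paralogue in resting cells. EZH2 had 85.8, 83.9, 77.8 and 77.4 CPM in NPY1R high replicates 1 to 4, and 86.5, 89.7, 91.3 and 93.8 CPM in NPY1R low replicates 1 to 4. Its groups did not overlap, although the gap was small, and the log2 fold change of -0.15 (95% interval -0.28 to -0.03) did not pass the threshold (edgeR quasi-likelihood adjusted p 0.104). EZH1 had 22.1, 21.9, 25.6 and 25.4 CPM in NPY1R high replicates 1 to 4, and 19.4, 19.6, 22.3 and 19.9 CPM in NPY1R low replicates 1 to 4, with overlapping groups and 0.22 (95% interval 0.03 to 0.42) (edgeR quasi-likelihood adjusted p 0.131). The fitted changes of EZH2 and EZH1 thus had opposite signs, and neither was called. With the GC offset EZH2 was called lower (edgeR quasi-likelihood adjusted p 0.0285), and with the replicate block and GC offset together EZH1 was called higher (edgeR quasi-likelihood adjusted p 0.0345). The shared subunits EED and SUZ12 had 0.12 (95% interval -0.06 to 0.30) and 0.03 (95% interval -0.10 to 0.17).

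None of the 6 H3K9 methyltransferases was called, against 13.6% of all tested genes. SUV39H1, the heterochromatin enzyme, had -0.28 (95% interval -0.68 to 0.12), and its paralogue SUV39H2 had -0.07 (95% interval -0.20 to 0.06). SETDB2 was the only H3K9 enzyme whose groups did not overlap, at 0.23 (95% interval 0.04 to 0.41) (edgeR quasi-likelihood adjusted p 0.104). SETDB1, EHMT1 and EHMT2 had 0.09, 0.03 and -0.12. Among the H4K20 enzymes, SETD8, the monomethylase needed for the cell cycle, had -0.26 (95% interval -0.44 to -0.08) (edgeR quasi-likelihood adjusted p 0.0673), and SUV420H2 had -0.22 (95% interval -0.59 to 0.15), while SUV420H1 had -0.003 (SE 0.07). Of the other SET domain proteins, the actin methyltransferase SETD3 had -0.16 (95% interval -0.30 to -0.03) and SETD6, which methylates RELA, had 0.22 (95% interval 0.05 to 0.40), while SETD4, SETD5 and SETD9 had 0.08, -0.11 and 0.04.

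PRMT2, an arginine methyltransferase that coactivates the estrogen receptor, was the other member called higher, and lies at chr21:46635674-46665124 (GRCh38.p14). Its levels were 52.4, 51.5, 50.2 and 49.1 CPM in NPY1R high replicates 1 to 4, and 46.1, 43.5, 38.9 and 34 CPM in NPY1R low replicates 1 to 4. The NPY1R high values were close to each other and above all NPY1R low values, which spread more widely. PRMT2 rose by 0.32 on the log2 scale (SE 0.09), a 1.25-fold difference (edgeR quasi-likelihood adjusted p 0.0449). Leaving out a library ended this call in 5 of 8 fits: the adjusted p was 0.11 without NPY1R high replicate 1, 0.106 without NPY1R high replicate 2, 0.0561 without NPY1R high replicate 4, 0.0528 without NPY1R low replicate 2 and 0.122 without NPY1R low replicate 3. Of 15 tested genes within 1.5 Mb of PRMT2, 0 were called, against 13.6% of all tested genes. PRMT1 and PRMT5, which make most of the asymmetric and symmetric dimethylarginine of a cell, were the most abundant arginine methyltransferases at 58.9 and 53.5 CPM per kb. PRMT1 had 0.00 (95% interval -0.28 to 0.29). PRMT5 had -0.06 (95% interval -0.16 to 0.04), with the smallest SE of all members (0.04). CARM1 had -0.07 (95% interval -0.38 to 0.25), and PRMT3, PRMT6, PRMT7 and PRMT9 had 0.10, 0.18, 0.02 and 0.15.

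**Figure D3:**
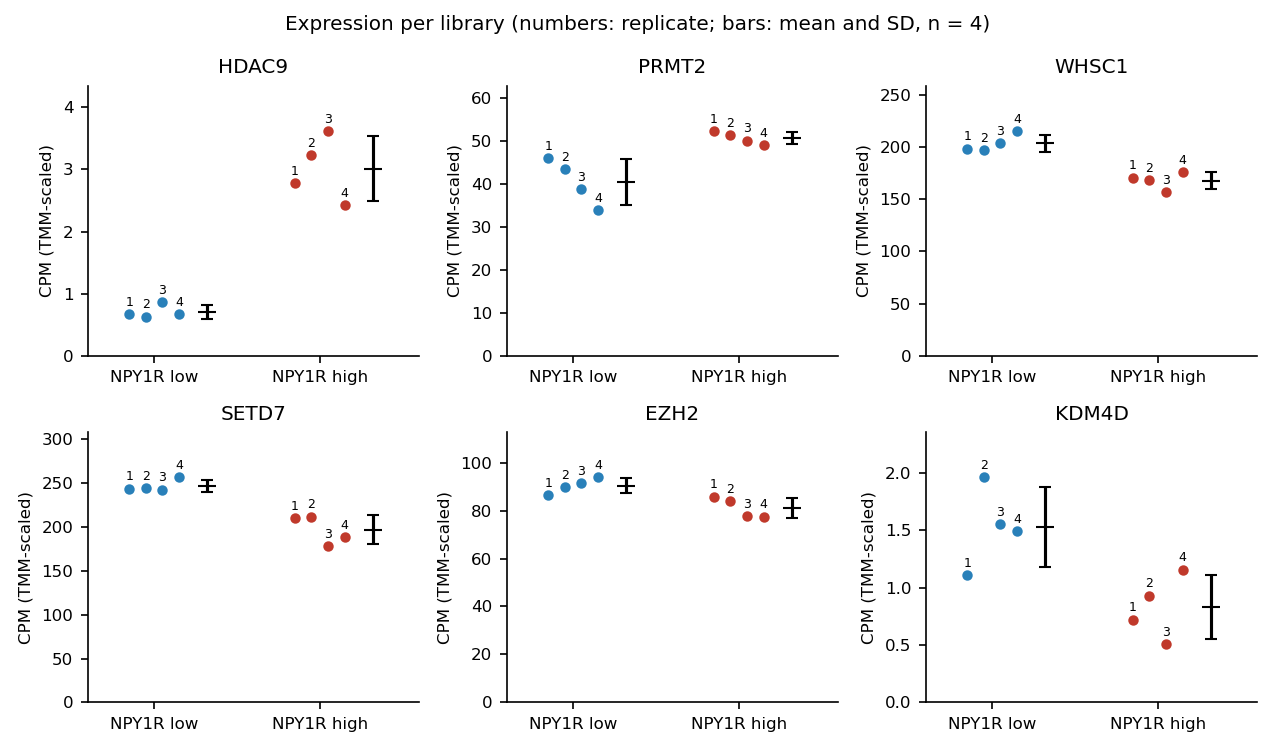
CPM in each library (points, numbered by replicate) with the mean and SD (bars, n = 4) for the 4 called enzymes and for EZH2 and KDM4D; each vertical axis starts at 0. The groups are apart for HDAC9, PRMT2, WHSC1, SETD7 and EZH2, and they overlap for KDM4D.

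None of the 17 tested demethylases was called, against 13.6% of all tested genes, and DESeq2 also called 0. An unadjusted p under 0.05 was found for 4 of them (23.5%), a share near the 26.2% of all tested genes. KDM1A, which removes methyl groups from H3K4 in the CoREST complex, was the most abundant member per kilobase, at 63.4 CPM per kb. It had 185, 173, 218 and 202 CPM in NPY1R high replicates 1 to 4, and 191, 177, 192 and 214 CPM in NPY1R low replicates 1 to 4, with a log2 fold change of 0.01 (95% interval -0.17 to 0.19). The groups overlapped.

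The KDM5 enzymes remove H3K4 trimethylation. KDM5A had 89.1, 96, 94.8 and 95.9 CPM in NPY1R high replicates 1 to 4, and 86.7, 86.1, 108 and 111 CPM in NPY1R low replicates 1 to 4, with overlapping groups and -0.06 (95% interval -0.26 to 0.14). KDM5B, known from luminal breast cancer, had 300, 297, 346 and 340.0 CPM in NPY1R high replicates 1 to 4, and 339, 306, 371 and 414 CPM in NPY1R low replicates 1 to 4, and -0.16 (95% interval -0.37 to 0.05). KDM5B was called lower in 1 of the 19 alternatives, the replicate block with GC offset (edgeR quasi-likelihood adjusted p 0.0159). The X-linked KDM5C had -0.13 (95% interval -0.32 to 0.07). For KDM5A and KDM5B, NPY1R low replicates 3 and 4 were the highest of the NPY1R low libraries.

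The KDM6 enzymes remove H3K27 methylation. KDM6A, also a subunit of the KMT2C and KMT2D complexes, had 64.1, 66.3, 69.2 and 73.2 CPM in NPY1R high replicates 1 to 4, and 64.2, 65.2, 70.2 and 75.6 CPM in NPY1R low replicates 1 to 4, and -0.01 (95% interval -0.17 to 0.14). KDM6B, an inducible gene, was low and variable, with 3.88, 4.8, 3.29 and 6.61 CPM in NPY1R high replicates 1 to 4, and 5.6, 5.39, 6.54 and 3.54 CPM in NPY1R low replicates 1 to 4, and -0.19 (95% interval -0.74 to 0.35). The groups overlapped for both genes.

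KDM4D, a mainly testis-expressed H3K9 demethylase, had the largest difference among members not called. It had 21, 25, 14 and 21 counts in NPY1R high replicates 1 to 4 and 33, 56, 34 and 38 in NPY1R low replicates 1 to 4. NPY1R high replicate 4 overlapped NPY1R low replicate 1 after scaling, and the log2 fold change was -0.91 (95% interval -1.54 to -0.28) (edgeR quasi-likelihood adjusted p 0.061). Its relatives KDM4A, KDM4B and KDM4C had 0.22, 0.16 and -0.26. KDM2A, KDM2B, KDM3A, KDM3B, KDM7A, KDM8 and KDM1B had log2 fold changes from -0.14 to 0.10, and of these only KDM3B had groups that did not overlap, at -0.13 (95% interval -0.26 to -0.01).

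For 57 of the 70 members not called, the 95% interval of the log2 fold change lay within 0.5 on either side of 0, and for 69 it lay within 1, with KDM4D as the exception. The 13 with wider intervals than 0.5 were KMT2B, DOT1L, SUV39H1, SUV420H2, KDM4B, KDM4C, KDM4D, KDM6B, HDAC5, HDAC10, SIRT4, SIRT6 and SIRT7. The median SE was 0.10 over the members and 0.11 over all tested genes.

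The precision differed with base composition. In the 24 members with the lowest transcript GC content (up to 45.5%), the median SE was 0.09, and in the 24 with the highest (from 56.8%) it was 0.17. Across the 74 tested members, which share each library, the deviation of a library from its group mean correlated with GC content at a Pearson r of -0.844 in NPY1R low replicate 4 (Spearman's rho -0.769) and -0.713 in NPY1R high replicate 3 (rho -0.712). The same correlation was 0.649 and 0.166 in NPY1R high replicates 1 and 2 and 0.301 in NPY1R high replicate 4. It was 0.632, 0.723 and 0.089 in NPY1R low replicates 1 to 3. Each deviation is taken from the mean of the library's own group, so the correlations within a group depend on each other. The GC-rich members HDAC10, SIRT6 and KMT2B had the lowest value of their group in NPY1R high replicate 3 and in NPY1R low replicate 4. The part of base composition in the calls was examined only by removing the GC trend.

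**Figure D4:**
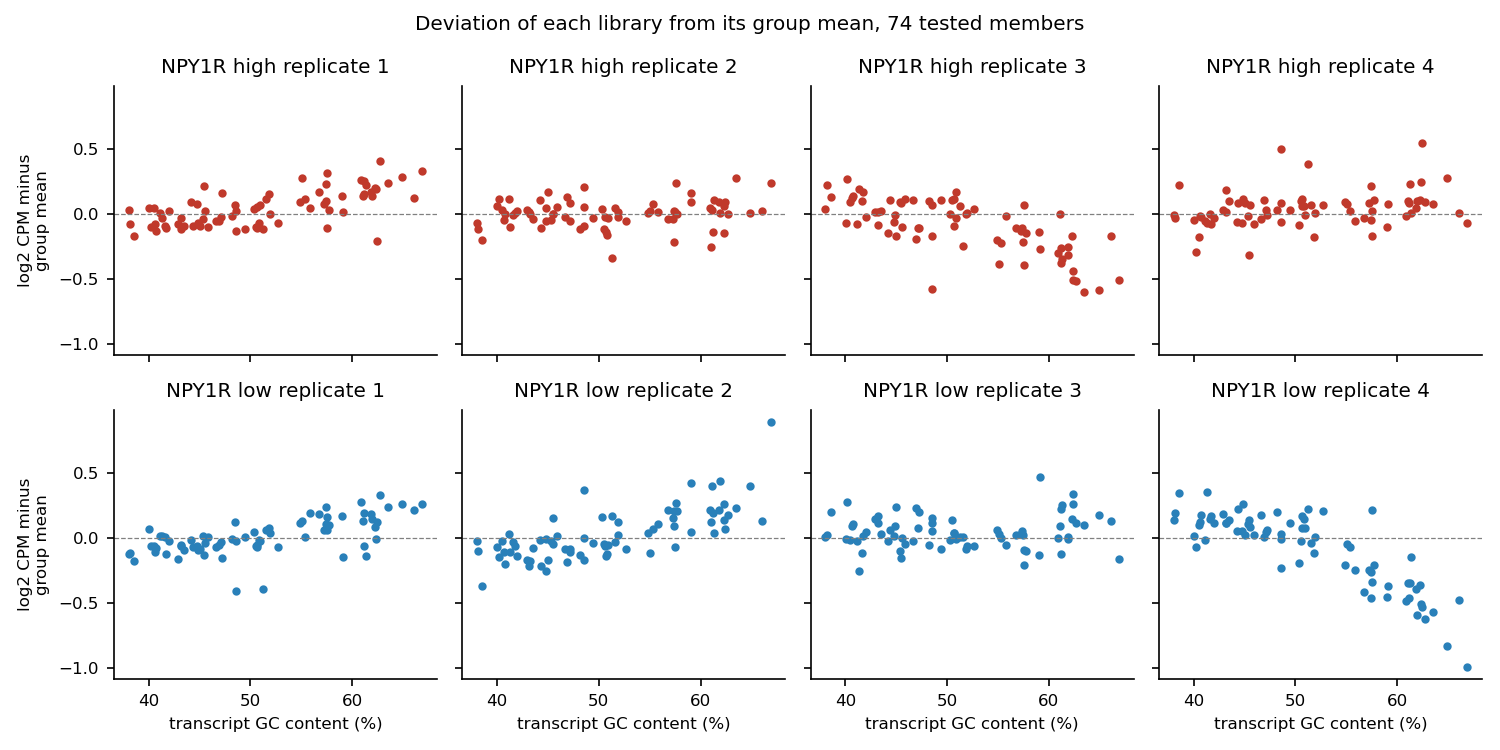
Deviation of log2 CPM from the group mean (vertical) against transcript GC content (horizontal, %) for the 74 tested enzymes in each library. The slope is downward in NPY1R low replicate 4 (r -0.844) and NPY1R high replicate 3 (r -0.713) and upward in NPY1R low replicate 2 (r 0.723) and replicates 1 of both groups. Slopes within a group depend on each other, as they share the group mean.

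The number of members called differed with how this trend was treated. After a GC trend was fitted and removed per library, 10 of 74 members were called (13.5%), 3 higher and 7 lower, against 21.3% of all tested genes, and the added calls were NSD1, EZH2, SETD8, SETD3 and KDM4D lower and SETD6 higher. A term for replicates 1 and 2 against 3 and 4, a division seen in an earlier analysis of these data, gave 11 members (14.9%, against 20.6% of all genes). In 1 or more of the 19 alternatives, 11 members not called in the main test were called: NSD1, SUV39H1, EZH1, EZH2, SETD8, SETD3, SETD6, PRMT6, KDM4A, KDM4D and KDM5B. The other 59 were called in none of them. How many of all tested genes gained a call in this way was not counted. The share called among all tested genes was 13.6% in the main test and 24.0% with the replicate block and GC offset. HDAC9, SETD7 and WHSC1 were called in all 19 and PRMT2 in 14. The highest edgeR quasi-likelihood adjusted p of HDAC9 was 0.0007. SETD7 and WHSC1 came close to the threshold, at 0.0497 without NPY1R high replicate 4 and 0.0456 without NPY1R high replicate 3.

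**Figure D5:**
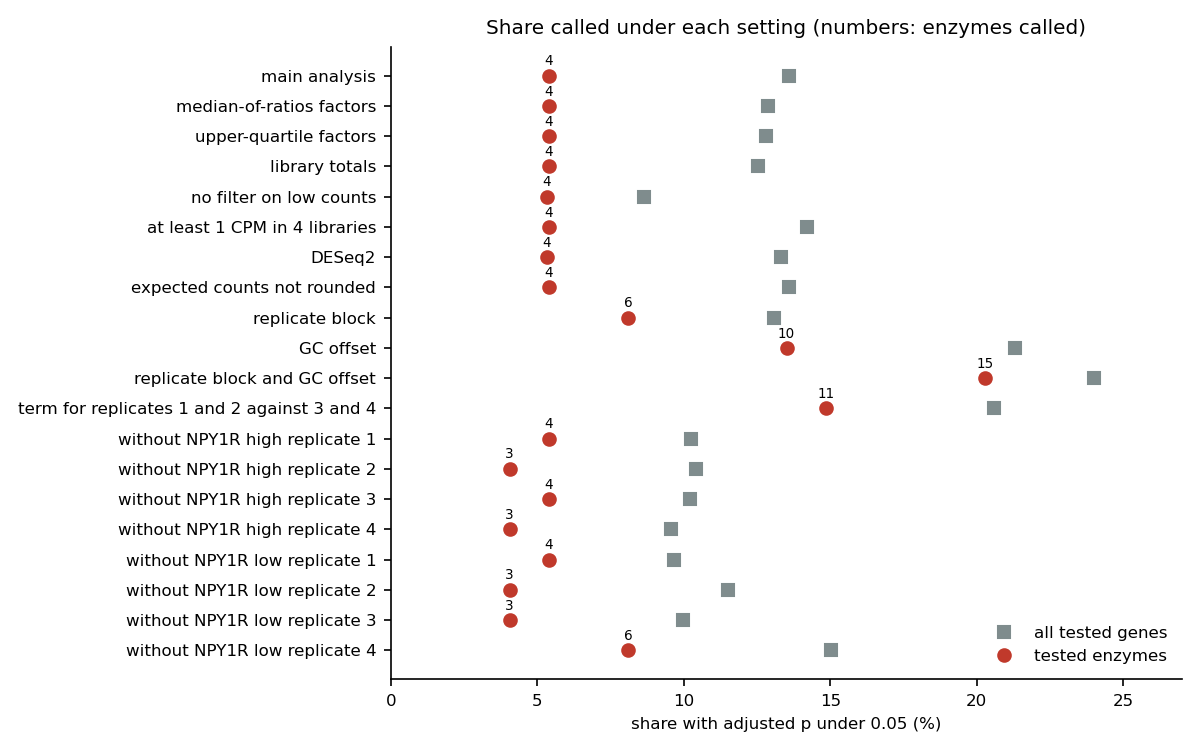
Share of tested enzymes (red circles, with the number called) and of all tested genes (grey squares) with an adjusted p under 0.05 under the main analysis and each alternative. The enzymes stand at 4 calls under 7 alternatives that change scaling, filter, rounding or test. They reach 15 calls (20.3%, against 24.0% of all tested genes) when replicate numbers and GC content are both modelled.

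Genes of cell division moved between the groups beside these enzymes. All 20 G2 and M phase genes of a list chosen with earlier results known were lower in NPY1R high and called (median log2 fold change -0.82), and MKI67 had a mean of 44.6 ± 6.3 CPM (SD, n = 4) across the NPY1R high libraries against 87.7 ± 9.61 CPM (SD, n = 4) across the NPY1R low libraries. Of 20 S phase genes 1 was called (5.0%, against 13.6% of all tested genes), RRM1, lower, and the median was -0.04. The part of cell division in the values of the enzymes was not tested.

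Partners of the enzymes were counted in lists chosen in the same way, and their shares stand beside 13.6% of all tested genes called. Of 12 COMPASS partners, such as WDR5 and ASH2L, 0 were called in edgeR's quasi-likelihood test, and DESeq2 called 0. An unadjusted p under 0.05 was found for 0 of them, against 26.2% of all tested genes. Of 9 tested PRC2 partners 3 were called (33.3%), all lower: PHF1 at -0.41 (SE 0.10), C17orf96 (EPOP) at -0.39 (SE 0.08) and RBBP7 at -0.20 (SE 0.06). Of 25 deacetylase complex partners 2 were called (8.0%), the CoREST subunit RCOR2 at -1.39 (SE 0.30) and the SIN3 subunit SAP30 at -0.48 (SE 0.08). RCOR2 averaged 2.96 ± 1.38 CPM (SD, n = 4) where NPY1R was high and 7.65 ± 1.54 CPM (SD, n = 4) where it was low.

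Of 12 acetyltransferases, which oppose the deacetylases, 2 were called (16.7%, near the 13.6% of all tested genes), both lower: NCOA3 at -0.28 (SE 0.07) and HAT1 at -0.20 (SE 0.06). Among methyltransferases outside the rule, 1 of 7 tested was called (14.3%), SMYD3, higher by 0.55 on the log2 scale (SE 0.08). Of 6 tested demethylases outside the rule, 1 was called (16.7%), the X-linked H3K9 and H4K20 demethylase PHF8, at -0.45 (SE 0.07). In the DNA methylation list 3 of 7 genes were called (42.9%), all TET dioxygenases, which oxidise methylcytosine. TET2 was higher by 0.58 (SE 0.07), from 123.7 ± 7.52 CPM in NPY1R low to 185.4 ± 14.5 CPM in NPY1R high (SD, n = 4 each), and TET1 was higher by 0.37 (SE 0.08). TET3 was lower, at -0.31 (SE 0.08). The DNA methyltransferases DNMT1, DNMT3A and DNMT3B and the cofactor UHRF1 were not called. DESeq2 called 2 of the PRC2 partners, 3 of the deacetylase complex partners, 1 of the acetyltransferases and 3 of the DNA methylation genes.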

How the data were processed

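RNA was sequenced from 8 BT474 samples, 4 NPY1R high and 4 NPY1R low. The authors deposited estimated counts (RSEM expected counts) by gene symbol, without scaling. STAR 2.5.2, RSEM 1.3.0 and the build hg38 are named in the submitters' processing notes; the annotation is not given in the sources used here. Values used are those of the series table, and 0 of them differed in the tables of single samples.

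Estimated counts were rounded. After filterByExpr (minimum count 10) and TMM scaling, which trims extreme log ratios before averaging, edgeR's quasi-likelihood test (edgeR 4.0.16 in R 4.3.3) compared the groups without covariates. CPM are counts scaled to the effective library size. Intervals come from that fit, at 95%. DESeq2 1.42.0 served as an alternative, beside other scalings and filters, unrounded counts, the replicate number as a block, a GC offset, a covariate splitting replicates 1 and 2 from 3 and 4, and each library left out. Transcript length and GC came from the longest coding GENCODE 29 transcript, known for 97.2% of tested genes. The offset removed a spline (5 degrees of freedom) on GC. It was fitted to each library's deviation in log2 CPM (prior count 2) from the gene's mean over all libraries of both groups. Any GC trend that differed between the groups was therefore removed too. Positions and promoters came from RefSeq. The main test was also run on counts simulated from the means and dispersions of these libraries. Of 200 genes changed by 1 on the log2 scale it recovered 84.5%, and of 200 changed by 0.5 it recovered 38%. The false calls were 4 and 6.

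Members, lists and alternatives were chosen with earlier results of these data known. Named with values were all called members, 14 fixed members whatever their p (KDM1A, KDM5A, KDM5B, KDM6A, KDM6B, KMT2C, KMT2D, EZH1, EZH2, HDAC1, HDAC2, HDAC3, HDAC6 and SIRT1), NPY1R, MKI67 and up to 3 called genes per list. Other members are given by their fitted change, and neighbouring genes and KDM4D's counts were added after their values were seen. The labels name no molecular identifiers, so counts may include copies of 1 molecule.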

Additional observations from a re-analysis of the deposited data

Results flagged for a closer look

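Within a group of 4 libraries, a library was singled out where its gap to the nearest other library was a larger part of the group's range than Dixon's 95% critical value allows. Of 148 group values of the tested members, 8 met this, where chance gives about 7.4 (1 in 20).

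For 6 of the 8 the library was NPY1R low replicate 4. It had 3.5 CPM of SUV420H2 (other NPY1R low libraries 5.35 to 5.7), 2.55 CPM of KDM8 (3.2 to 3.32), 18.1 CPM of HDAC7 (24.7 to 25.8) and 18.7 CPM of HDAC11 (25.3 to 26), and it was the highest for SETD7, at 256.3 CPM (242.5 to 243.8), and for HDAC3, at 62 CPM (50.6 to 51.5). Without this library the change of SETD7 stayed past the threshold. The other values were 18.3 CPM of EED in NPY1R low replicate 3 (19 to 19.2 in the other libraries of its group) and 89.1 CPM of KDM5A in NPY1R high replicate 1 (94.8 to 96).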

How the results depend on the processing

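Over 19 alternatives the named genes gave 399 values, of which 370 stayed as in the main test in sign and call, 5 lost and 5 gained a call, and 19, all of members not called, changed sign. The median log2 fold change of the members ranged from -0.05 to 0.05 and was above 0 in 6 of the 19: 0.0178 with upper-quartile factors, 0.0053 with library totals, 0.0029 without a filter, 0.0046 at 1 CPM in 4 libraries, 0.0471 without NPY1R high replicate 3 and 0.0128 without NPY1R low replicate 1. A count of calls was taken as moved where it differed by over 1.5 times. The cause of such a move was not tested for any alternative. Replicate numbers were not taken as pairs in the main test, as the labels name no pairing. The running numbers in the sample titles alternate between the groups. Deviations of same-numbered libraries correlated at 0.339, 0.157, 0.0907 and 0.0178. Differently numbered libraries were not compared, so these values do not settle whether the libraries are pairs. With the replicate block, 6 members were called (3 higher, 3 lower), and 805 genes were higher and 1028 lower. With the block and the GC offset, 6 members were higher and 9 lower, and 1350 genes higher and 2010 lower. The GC offset gave 7 members and 1812 genes lower, while a covariate splitting replicates 1 and 2 from 3 and 4 gave 5 members higher, 6 lower and 1681 genes lower. Leaving out each library in turn, members higher ranged from 1 (without NPY1R high replicates 1, 2 or 4 or NPY1R low replicates 2 or 3) to 4 (without NPY1R low replicate 4), members lower from 2 to 3, genes higher from 624 to 1068 and genes lower from 625 (without NPY1R high replicate 4) to 1064; genes lower were 710 without NPY1R high replicate 3 and 678 without NPY1R low replicate 1. Of all calls 42.5% were higher with TMM and 56.3% with upper-quartile factors, while the members were 2 higher and 2 lower under both.

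KDM6A, at -0.01, became 0.0123 with median-of-ratios factors, 0.0114 with DESeq2, 0.0407 with upper-quartile factors, 0.0261 with library totals, 0.0274 without a filter and 0.0288 at 1 CPM in 4 libraries. KMT2D, at -0.04, became 0.0131 with upper-quartile factors, 0.002 with library totals and 0.0201 with the block and GC offset. Leaving out each library, KDM6A ranged from -0.0382 to 0.0715, KMT2D from -0.1172 to 0.1396, KDM1A from -0.032 to 0.0958, KDM5A from -0.1134 to 0.0438 and HDAC2 from -0.1471 to 0.0109. Low counts limit HDAC9, HDAC10, KDM4D and KDM6B.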
